A study of Mus musculus with 9 samples.

Results

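The genes described here mark surface ectoderm and simple epithelia: Trp63, Grhl1, Grhl2, Grhl3, Krt8, Krt18, Krt19, Epcam, Dlx3 and Dlx5. They were chosen by name, as the rows of the count table whose Ensembl gene ID maps to these symbols, and 10 of 10 were found among 54532 genes, with 1 row each. All 10 passed the filter on low counts that left 16772 genes for testing. The 9 libraries hold RNA of sorted cells of neural tube organoids, neuroepithelial cultures grown clonally in Matrigel from R1 mouse embryonic stem cells, a single line. All groups carry the FoxA2-Venus reporter, grew in N2B27 medium and were harvested 66 h after Day 2, when the medium was changed. The 3 groups of 3 biological replicates were cells without reporter signal from retinoic acid medium (RA GFP-), cells with signal from retinoic acid medium (RA GFP+), and cells with signal from medium with SAG (SAG GFP+), an agonist of the hedgehog transducer Smoothened. SAG is named only in the sample titles, its dose is not given in the sources used here, its medium is taken to lack retinoic acid, and signal-negative cells from SAG medium were not analysed here. The retinoic acid dose is given as 250 in different units in different places, so its unit was not settled. The labels do not say whether the replicates came from separate cultures, and p-values measure the spread between these libraries.

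Surface ectoderm is the part of the ectoderm that borders the neural plate and later forms epidermis and the placodes. Trp63 encodes p63, the master transcription factor of stratified epithelia, and Dlx3 and Dlx5 encode homeodomain factors of the non-neural ectoderm and neural plate border. Grhl1, Grhl2 and Grhl3 encode grainyhead-like factors, which switch on junction and barrier genes, and loss of Grhl2 or Grhl3 in mice leads to neural tube closure defects. Krt8 (type II) and Krt18 (type I) form the keratin filaments of simple epithelia, Krt19 encodes another type I simple keratin, and Epcam encodes a homophilic adhesion molecule of epithelial and pluripotent stem cells. Several of these genes are not confined to surface ectoderm: simple keratins and Epcam are also made in endoderm, notochord, trophoblast and stem cells, and Dlx5 in developing neurons. In bulk samples, fewer cells of a type and less RNA per cell cannot be told apart.

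Total counts ranged from 25281871 to 29763765 per library. Levels are given in CPM, counts scaled to a common total over the tested genes, or in RPKM, which is CPM per kilobase of exon, where different genes are compared. Genes are called by an adjusted p under 0.05 in edgeR's quasi-likelihood test, and each log2 fold change is given with its standard error (SE). SAG GFP+ replicate 1 stood apart from its group in the sums of pluripotency, node and trophoblast markers, which rested on a few genes. Its summed naive pluripotency markers reached 216 CPM, against 59.8 and 72.4 CPM in the other SAG libraries. Pou5f1 alone gave 171 CPM of that sum, against 37.4 and 39.3 CPM, and the next marker, Nanog, gave 26.9 CPM. The other markers of the list lay at 6.8 CPM (Tfcp2l1) or lower in it, so the sum does not speak for the naive list as a whole. Of this list, Zfp42 and Esrrb were not highest in replicate 1, at 0.204 and 2 CPM. Its trophoblast sum rested on Cdx2, at 47.5 CPM against 5.06 and 3.97 CPM, and Eomes, at 8.92 CPM against 1.2 and 0.856 CPM. The other trophoblast markers lay at 0.163 CPM (Ascl2) or lower in it. The same library was the highest of the SAG group for 8 of the 10 genes, all but Krt19 and Dlx3, so calls that depend on it are given without it as well, and group means that rest on it are given library by library.

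Between RA GFP+ and RA GFP- cells, which differ by the reporter sort within the same medium, the 10 genes moved in both directions. Trp63, Dlx5, Krt8 and Krt18 were higher in RA GFP+ cells, Grhl1 and Grhl3 were lower, and Grhl2, Krt19, Epcam and Dlx3 were not called. That made 6 of 10 genes called, beside 16.9% of all tested genes. In 1 direction, 4 were higher beside 8.49% of all genes, and 2 were lower beside 8.43%. The values of the 2 groups did not overlap for 7 of the 10 genes, beside 36.4% of all genes, and the median log2 fold change was 0.80 beside -0.018 over all genes. These tests did not pair the libraries. With the replicate number as a block in the 6 RA libraries, 7 of the 10 genes were called in place of 6, and 5240 of all genes in place of 2838.

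Between SAG GFP+ and RA GFP+ cells, which differ by medium within the same sort, no gene was called higher and 4 of 10 were lower. These were Trp63, Grhl3, Krt8 and Krt18, beside 24.5% of all genes called in either direction, 14.8% called lower and 9.78% called higher. Values did not overlap for 4 of the 10 genes, beside 42.9% of all genes, and the median log2 fold change was -1.29 beside -0.017. Without the filter on low counts 7 of the 10 were called in place of 4, and 4799 of all genes in place of 4117. Both comparisons use the RA GFP+ libraries, so they are not independent of each other.

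In SAG GFP+ against RA GFP- cells, sort and medium both differ and cannot be told apart. Grhl1, Grhl3, Krt8 and Krt18 were lower and none of the 10 was called higher, beside 28.5% of all genes called with 16.5% called lower and 12% called higher. Values did not overlap for 5 of the 10, beside 41.1% of all genes, and the median log2 fold change was -0.69 beside -0.009.

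**Figure D1:**
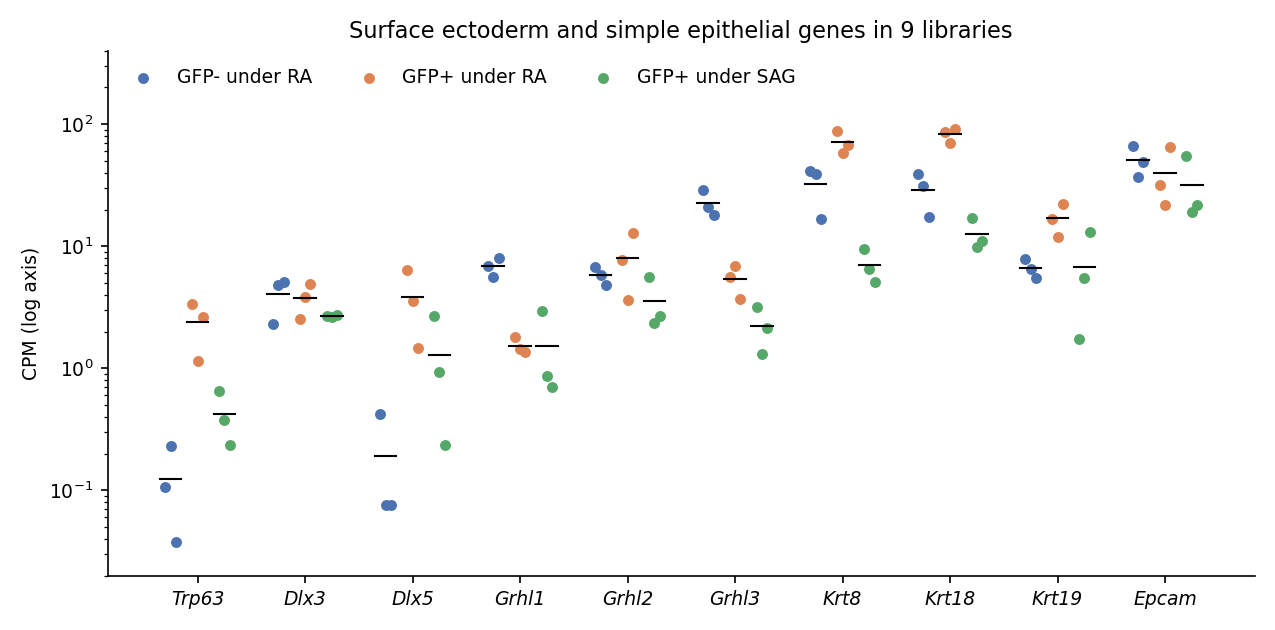
Level of each of the 10 genes in CPM (log axis) in each of the 9 libraries, coloured by group, with each point 1 library. Krt8 and Krt18 are highest in the RA GFP+ libraries and lowest in the SAG GFP+ libraries, while Grhl1 and Grhl3 are highest in the RA GFP- libraries.

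Krt8 and Krt18, the partner keratins of simple epithelia, showed the same order of the groups, with RA GFP+ above RA GFP- and SAG GFP+ lowest. Krt8 measured 41.4, 39.4 and 16.6 CPM in RA GFP- replicates 1 to 3, 87.2, 57.7 and 68.1 CPM in RA GFP+, and 9.45, 6.52 and 5.1 CPM in SAG GFP+. The 3 groups did not overlap for Krt8, and RA GFP- replicate 3 was lower than its group's other libraries. Krt8 was 10.1-fold lower in SAG GFP+ than in RA GFP+ cells (log2 fold change -3.34, SE 0.35, adjusted p = 5.57e-05). It was also 4.63-fold lower in SAG GFP+ than in RA GFP- cells (-2.21, SE 0.34, adjusted p = 0.000592). The rise of Krt8 from RA GFP- to RA GFP+ cells was 2.18-fold (1.13, SE 0.32, adjusted p = 0.0307). This call depended on single libraries. Leaving out RA GFP- replicate 3 gave 0.81 (adjusted p = 0.0526), leaving out RA GFP+ replicate 1 gave 0.95 (adjusted p = 0.11), leaving out RA GFP+ replicate 3 gave 1.16 (adjusted p = 0.0536), and adjusted p ran from 5.03e-06 to 0.11 over all alternatives.

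Krt18 measured 39.2, 30.9 and 17.4 CPM in RA GFP- cells, 86.5, 70.5 and 91 CPM in RA GFP+ cells, and 16.9, 9.93 and 11.1 CPM in SAG GFP+ cells. The groups did not overlap, although the lowest RA GFP- library and the highest SAG GFP+ library lay close together. Krt18 was 2.83-fold higher in RA GFP+ than in RA GFP- cells (1.5, SE 0.28, adjusted p = 0.0033) and 6.54-fold lower in SAG GFP+ than in RA GFP+ cells (-2.71, SE 0.29, adjusted p = 6.37e-05). Against RA GFP- cells it was 2.31-fold lower in SAG GFP+ cells (-1.21, SE 0.28, adjusted p = 0.00751).

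Krt8 and Krt18 lie next to each other on chromosome 15 of GRCm38, Krt8 at 101996698 to 102004482 on the minus strand and Krt18 at 102028180 to 102032027 on the plus strand, with 23697 bases between them. They point away from each other, so the ends that face are their starts. Stretches upstream of Krt18 and around the start of Krt8 are shown because the 2 genes moved together. They come from the RefSeq promoter windows of GRCm38.p6, which reach 250 bases before and 50 after each start and exist here for 5 of the 10 genes. The Krt8 stretch lies inside the annotated gene, near its start. Capitals mark an AP-2 consensus match, GCCNNNGGC, in Krt18, and in Krt8 the letters TATAAA, matched on both strands with overlap. The Krt8 match spans the RefSeq start itself and lies downstream of the start of the annotated gene, which is not the place of a TATA box, upstream of a start.
Krt18 (chr15:102027966-102028179, plus strand): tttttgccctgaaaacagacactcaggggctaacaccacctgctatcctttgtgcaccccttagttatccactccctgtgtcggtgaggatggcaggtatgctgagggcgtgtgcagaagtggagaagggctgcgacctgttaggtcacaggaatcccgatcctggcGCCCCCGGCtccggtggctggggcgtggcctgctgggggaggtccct
Krt8 (chr15:102004328-102004357, minus strand): ctggcctcttctTTTATAAAgggccttcgc
Of 32851 RefSeq windows of the same length, searched on both strands, 16.6% held the AP-2 consensus and 13.6% held TATAAA. A match is a run of letters and was not tested as a binding site. The whole Krt18 window had 17 CpG and a GC content of 61.3%, and the Krt8 window had 6 CpG and 58%, beside medians of 7 CpG and 52.7% over all windows.

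Per length of exon the type I partner was the more abundant in every library. Krt8 averaged 16.6 ± 7.03 RPKM in RA GFP- cells, 36.3 ± 7.63 RPKM in RA GFP+ cells and 3.59 ± 1.13 RPKM in SAG GFP+ cells (SD, n = 3). Krt18 averaged 20.3 ± 7.67, 57.5 ± 7.49 and 8.80 ± 2.58 RPKM in the same groups. The ratio of Krt8 to Krt18 per length was 0.775, 0.935 and 0.702 in RA GFP- libraries, 0.74, 0.601 and 0.55 in RA GFP+ libraries, and 0.411, 0.482 and 0.336 in SAG GFP+ libraries. The SAG libraries held the 3 lowest ratios, and the RA groups overlapped. On the log2 scale the mean ratio was -0.33 ± 0.21, -0.68 ± 0.22 and -1.30 ± 0.26 (SD, n = 3) in RA GFP-, RA GFP+ and SAG GFP+ libraries. The ratio is a description and carries no test. Krt8 shares 5.16% of its exon bases with an antisense gene that held 12 counts beside 9077 for Krt8, and its pseudogene Krt8-ps held 29 counts.

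**Figure D2:**
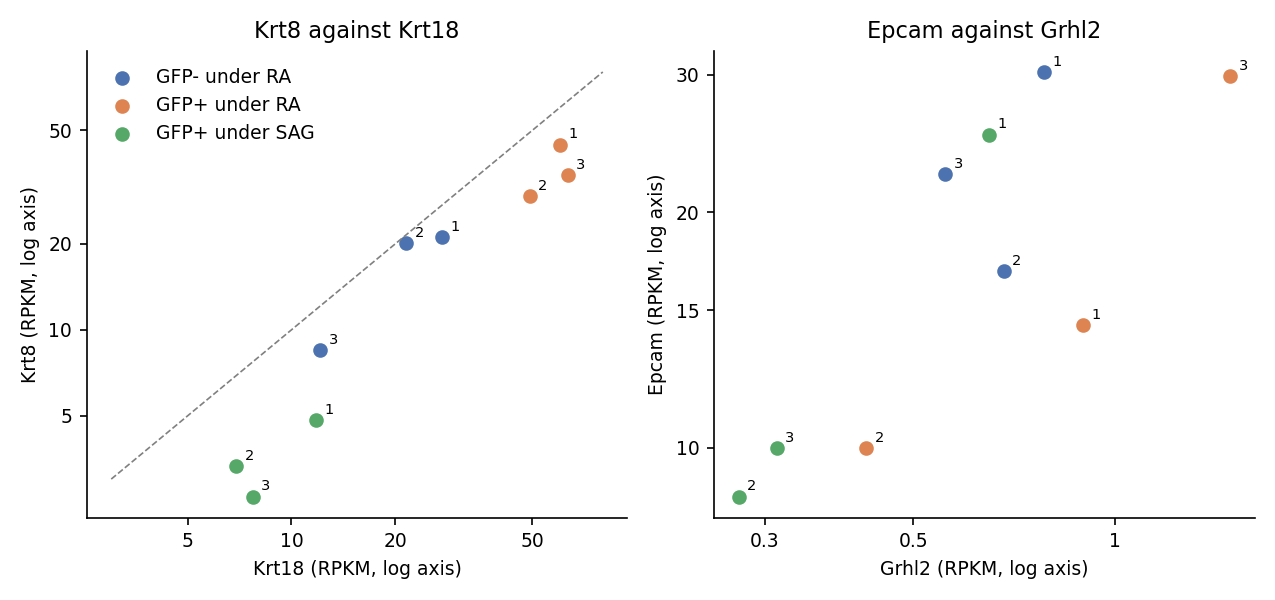
Left, Krt8 (vertical) against Krt18 (horizontal) in RPKM on log axes, with each point 1 library numbered by replicate and the dashed line at equal levels, and right, Epcam (vertical) against Grhl2 (horizontal) likewise. All 9 libraries lie below the dashed line on the left, and in the right panel RA GFP+ replicate 3 has the highest Grhl2 with an Epcam level like that of the upper RA GFP- and SAG GFP+ libraries.

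Krt19, a further simple keratin, was more variable within the SAG group. It measured 7.91, 6.48 and 5.52 CPM in RA GFP- cells, 16.7, 11.8 and 22.2 CPM in RA GFP+ cells, and 1.75, 5.47 and 13.2 CPM in SAG GFP+ cells. The RA groups did not overlap, and the SAG libraries spread across both. The difference between the RA groups was not called (log2 fold change 1.35, SE 0.52, adjusted p = 0.108). In a fit of the 6 RA libraries alone it was called without a block (1.34, adjusted p = 0.00756). It was also called there with the replicate number, which pairs these libraries, as a block (1.31, adjusted p = 0.00139). With a block over all 9 libraries it was not called (1.24, adjusted p = 0.0858), and adjusted p ran from 0.000491 to 0.251 over all alternatives. Between SAG GFP+ and RA GFP+ cells the value was -1.31 (SE 0.52, adjusted p = 0.091), and without SAG GFP+ replicate 3 it was -2.21 (adjusted p = 0.00781, with a range from 0.000692 to 0.243 over all alternatives).

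Trp63, on chromosome 16 at 25683763 to 25892102, was near the detection limit outside RA GFP+ cells. It had 3, 6 and 1 counts in RA GFP- libraries, 86, 34 and 76 counts in RA GFP+ libraries, and 16, 10 and 6 counts in SAG GFP+ libraries. In CPM these were 0.106, 0.229 and 0.0381, then 3.37, 1.14 and 2.65, then 0.652, 0.375 and 0.234. The RA GFP+ libraries lay above all others. The highest RA GFP- library and the lowest SAG GFP+ library each had 6 counts, so those groups were apart only by the scaling. Trp63 was 5.64-fold lower in SAG GFP+ than in RA GFP+ cells (-2.50, SE 0.59, adjusted p = 0.00956). It was 18.6-fold higher in RA GFP+ than in RA GFP- cells (4.22, SE 0.68, adjusted p = 0.00143), and the log2 fold change was 4.95 when RA GFP- replicate 2 was left out. Between SAG GFP+ and RA GFP- cells the value was 1.72 (SE 0.71, adjusted p = 0.0937), and 2.45 when RA GFP- replicate 2 was left out (adjusted p = 0.0634, with a range from 0.061 to 0.227 over all alternatives). Even the RA GFP+ mean was only 0.285 ± 0.136 RPKM (SD, n = 3), the lowest in that group of the 10 genes but for Grhl1 at 0.277 ± 0.0424 RPKM. The gene has 8 annotated transcripts, and counts per gene do not tell the forms of p63 apart.

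The 3 grainyhead-like genes did not move together. Grhl3, on chromosome 4 at 135541888 to 135573630, measured 28.8, 20.9 and 18.2 CPM in RA GFP- cells, 5.57, 6.86 and 3.7 CPM in RA GFP+ cells, and 3.18, 1.31 and 2.14 CPM in SAG GFP+ cells. The 3 groups did not overlap and fell in that order. Grhl3 was 4.21-fold lower in RA GFP+ than in RA GFP- cells (-2.07, SE 0.33, adjusted p = 0.00142). It was 10.2-fold lower in SAG GFP+ than in RA GFP- cells (-3.36, SE 0.36, adjusted p = 4.52e-05). The 2.43-fold difference between SAG GFP+ and RA GFP+ cells (-1.28, SE 0.34, adjusted p = 0.0175) rested on single libraries: leaving out RA GFP+ replicate 2 gave -1.07 (adjusted p = 0.0768), SAG GFP+ replicate 2 gave -0.99 (adjusted p = 0.0709), and SAG GFP+ replicate 3 gave -1.25 (adjusted p = 0.0569). Adjusted p for that comparison ran from 0.000415 to 0.0768 over all alternatives.

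Grhl1, on chromosome 12 at 24572283 to 24617391, was also highest in RA GFP- cells, at 6.92, 5.6 and 8.07 CPM. It measured 1.8, 1.45 and 1.36 CPM in RA GFP+ cells and 2.97, 0.862 and 0.701 CPM in SAG GFP+ cells. The RA GFP- libraries lay above all others, and the GFP+ groups overlapped. Grhl1 was 4.46-fold lower in RA GFP+ than in RA GFP- cells (-2.16, SE 0.48, adjusted p = 0.00927) and lower in SAG GFP+ than in RA GFP- cells (-2.18, SE 0.48, adjusted p = 0.00576, and -3.10 when SAG GFP+ replicate 1 was left out). Between the GFP+ groups the value was -0.03 (SE 0.48, adjusted p = 0.977), and it was -0.95 without SAG GFP+ replicate 1.

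Grhl2, on chromosome 15 at 37233036 to 37363569, measured 6.74, 5.87 and 4.8 CPM in RA GFP- cells, 7.72, 3.66 and 12.8 CPM in RA GFP+ cells, and 5.58, 2.36 and 2.69 CPM in SAG GFP+ cells. All groups overlapped. The value for RA GFP+ against RA GFP- cells was 0.47 (SE 0.44, adjusted p = 0.523). Between SAG GFP+ and RA GFP+ cells it was -1.19 (SE 0.45, adjusted p = 0.0745), and -1.65 without SAG GFP+ replicate 1 (adjusted p = 0.0207, with a range from 0.00656 to 0.294 over all alternatives). Grhl2 shares 1.96% of its exon bases with the antisense gene Gm16136, which held 214 counts beside 1412, and the strand setting of the counting is not given in the sources used here. Per length, Grhl3 was the most abundant of the 3 in every group, at 8.11 ± 1.97, 1.93 ± 0.569 and 0.792 ± 0.335 RPKM in RA GFP-, RA GFP+ and SAG GFP+ cells (SD, n = 3). Grhl2 averaged 0.674 ± 0.113, 0.935 ± 0.529 and 0.411 ± 0.206 RPKM in the same order.

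Epcam, on chromosome 17 at 87635979 to 87651129, was the only member with a mean above 10 RPKM in all 3 groups. Its SAG mean rested on replicate 1, and it was called in no comparison. It measured 66.4, 36.9 and 49.1 CPM in RA GFP- cells, 31.5, 21.9 and 65.6 CPM in RA GFP+ cells, and 55.2, 19 and 21.9 CPM in SAG GFP+ cells. All groups overlapped, and each GFP+ group had 1 library at about the RA GFP- level, RA GFP+ replicate 3 and SAG GFP+ replicate 1. The value was -0.36 (SE 0.44, adjusted p = 0.648) for RA GFP+ against RA GFP-, -0.31 (SE 0.44, adjusted p = 0.65) for SAG GFP+ against RA GFP+, and -0.67 (SE 0.44, adjusted p = 0.291) for SAG GFP+ against RA GFP-. Without SAG GFP+ replicate 1 the last was called (-1.29, adjusted p = 0.0309, with a range from 0.0154 to 0.62 over all alternatives). The 250 bases before its start are shown because Epcam is the one gene of the 5 with a window that holds ACCGGT, the core of the grainyhead consensus AACCGGTT, in capitals.
Epcam (chr17:87635729-87635978, plus strand): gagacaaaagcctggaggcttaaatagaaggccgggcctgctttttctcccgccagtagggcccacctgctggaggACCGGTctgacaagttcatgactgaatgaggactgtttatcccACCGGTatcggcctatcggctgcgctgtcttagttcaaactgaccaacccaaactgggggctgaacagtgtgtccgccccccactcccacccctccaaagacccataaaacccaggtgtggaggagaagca
The window holds 2 matches to the core and none to the whole consensus, in which the core is nested. The core occurs in 2.33% and the whole consensus in 0.146% of the 32851 windows, and both read the same on either strand. The core was chosen for the search after the windows had been read.

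Dlx5 and Dlx3, homeodomain genes of the non-neural ectoderm, differed from each other. Dlx5, on chromosome 6 at 6877805 to 6882085, had 12, 2 and 2 counts in RA GFP- libraries, 164, 106 and 42 counts in RA GFP+ libraries, and 66, 25 and 6 counts in SAG GFP+ libraries. In CPM these were 0.424, 0.0762 and 0.0761, then 6.43, 3.56 and 1.46, then 2.69, 0.937 and 0.234. RA GFP+ cells did not overlap RA GFP- cells, and the SAG libraries overlapped both. Dlx5 was 19.1-fold higher in RA GFP+ than in RA GFP- cells (4.25, SE 0.93, adjusted p = 0.00878), and the log2 fold change was 5.57 when RA GFP- replicate 1 was left out and 3.66 when RA GFP+ replicate 1 was. Between SAG GFP+ and RA GFP+ cells the value was -1.57 (SE 0.78, adjusted p = 0.169), and without SAG GFP+ replicate 1 it was called lower (-2.67, adjusted p = 0.0315), while leaving out RA GFP+ replicate 1 gave -0.97 (adjusted p = 0.502), in a range from 0.00553 to 0.502 over all alternatives. Between SAG GFP+ and RA GFP- cells the value was 2.68 (SE 0.94, adjusted p = 0.0512), with 1.58 when SAG GFP+ replicate 1 was left out and 4.01 when RA GFP- replicate 1 was. This difference was called in 7 of 15 alternatives, and adjusted p ran from 0.000215 to 0.202 over them.

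Dlx3, on chromosome 11 at 95120119 to 95125296, measured 2.29, 4.8 and 5.14 CPM in RA GFP- cells, 2.55, 3.83 and 4.88 CPM in RA GFP+ cells, and 2.69, 2.62 and 2.76 CPM in SAG GFP+ cells. All groups overlapped, and the SAG libraries lay close to each other. The log2 fold changes were -0.12 (SE 0.35, adjusted p = 0.864) for RA GFP+ against RA GFP- and -0.48 (SE 0.36, adjusted p = 0.36) for SAG GFP+ against RA GFP+. Dlx1, Dlx2 and Dlx6 were each higher in RA GFP+ than in RA GFP- cells, as Dlx5 was. Dlx2 averaged 1.62, 17.5 and 7.13 CPM in RA GFP-, RA GFP+ and SAG GFP+ cells (log2 fold change 3.42 for the RA groups, SE 0.43, adjusted p = 0.000311), and Dlx6, the neighbour of Dlx5, averaged 0.173 and 1.84 CPM in the RA groups (3.37, adjusted p = 0.00393), with 1.43, 0.599 and 0.273 CPM in the SAG GFP+ libraries. Dlx4, which pairs with Dlx3 in its cluster, averaged 0.477, 0.473 and 0.445 CPM. Dlx6 and Dlx4 are named beside their cluster partners after their values were seen.

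**Figure D3:**
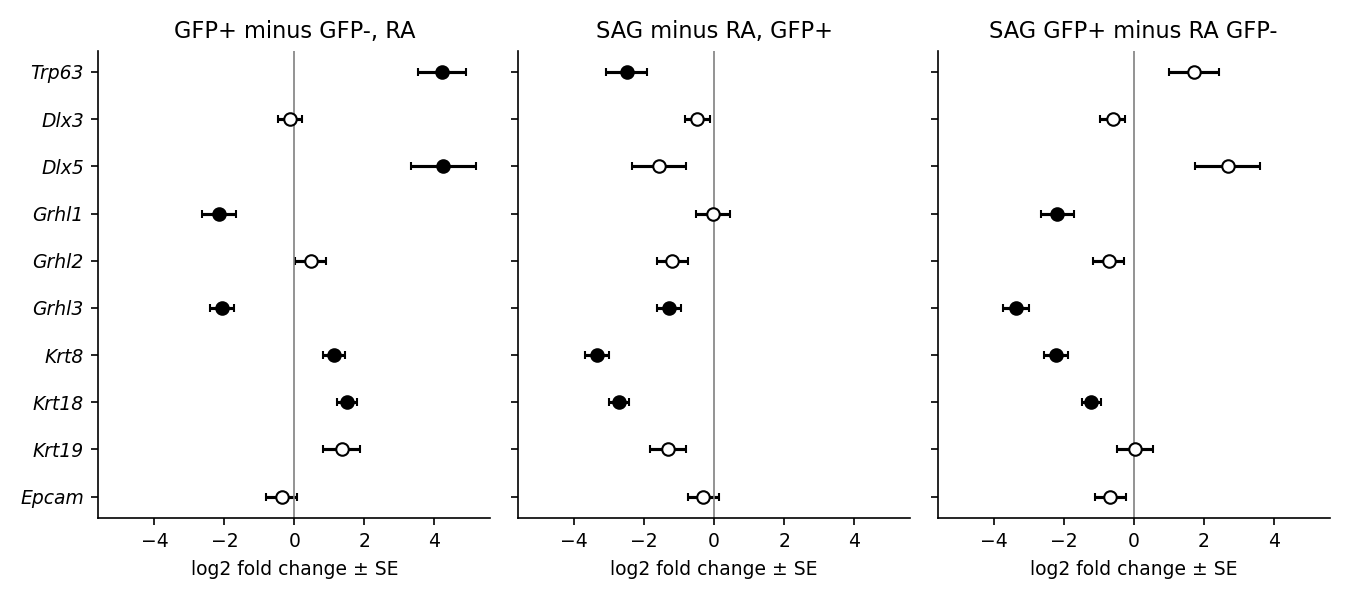
Log2 fold change of each of the 10 genes in the 3 comparisons, with bars for the SE and filled points for genes called at an adjusted p under 0.05. Trp63 and Dlx5 lie above 4 in RA GFP+ against RA GFP- cells, and Krt8 lies at -3.34 in SAG GFP+ against RA GFP+ cells.

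The order of the genes by level per length changed between groups. In RA GFP- cells Epcam led at 23.1 ± 6.74 RPKM, followed by Krt18 and Krt8, and these 3 did not differ beyond their spread. In RA GFP+ cells Krt18 led, followed by Krt8 and then Epcam at 18.1 ± 10.5 RPKM. In SAG GFP+ cells Epcam led at 14.6 ± 9.17 RPKM, with a spread that reached Krt18. That mean rested on replicate 1, at 55.2 CPM against 19 and 21.9 CPM. Krt19 averaged 3.58 ± 0.648, 9.11 ± 2.82 and 3.66 ± 3.14 RPKM in RA GFP-, RA GFP+ and SAG GFP+ cells, and all transcription factors of the list lay under 2 RPKM in every group but Grhl3 in RA GFP- cells (SD, n = 3).

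Further genes of the epithelial programme were taken from lists written by hand, and their counts stand beside those over all tested genes. Between the RA groups 8.49% of all genes were higher and 8.43% lower, with a median log2 fold change of -0.018, and between the GFP+ groups 9.78% were higher and 14.8% lower, with a median of -0.017. Of 20 tested junction and adhesion genes, 7 were higher and none was lower in RA GFP+ than in RA GFP- cells, with a median log2 fold change of 0.35. The count of 7 was 4 without RA GFP- replicate 2. Dsp, the desmosomal plaque protein desmoplakin, averaged 18.5 CPM in RA GFP- and 87.7 CPM in RA GFP+ cells (2.25, SE 0.36, adjusted p = 0.00133), and Lsr, a tricellular junction protein, 58.9 and 120 CPM (1.03, SE 0.21, adjusted p = 0.00682). In SAG GFP+ against RA GFP+ cells, 12 of the 20 were lower and none was higher, with a median of -1.30. Cldn4, a tight junction claudin, averaged 29.4, 23.9 and 0.897 CPM in RA GFP-, RA GFP+ and SAG GFP+ cells (-4.74 for SAG GFP+ against RA GFP+, SE 0.38, adjusted p = 1.1e-05). The desmosomal cadherin Dsc2 rose and fell with the keratins, at 10, 26.8 and 4.87 CPM (1.42, adjusted p = 0.00173 between the RA groups and -2.46, adjusted p = 3.96e-05 between the GFP+ groups).

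Of 11 other keratins, 4 were tested. Krt7, a simple keratin, averaged 9.32, 12 and 0.388 CPM in RA GFP-, RA GFP+ and SAG GFP+ cells and was lower in SAG GFP+ than in RA GFP+ cells (-4.93, SE 0.44, adjusted p = 2.13e-05). Krt20, a keratin of intestinal and urothelial lining, had 0 counts in the SAG group, so it was at least 59.6-fold lower than in RA GFP+ cells, against a floor of 3 counts over the group. Between the RA groups Krt20 rose (2.18, SE 0.53, adjusted p = 0.0192, and 2.81 when RA GFP- replicate 1 was left out). Leaving out replicate 2 or 3 of either RA group kept a log2 fold change of 1.93 to 2.09 but ended the call, and adjusted p ran from 0.00189 to 0.077 over all alternatives. Of the keratins of epidermis, the basal pair was near or at 0. Krt5 averaged 0.12 CPM in RA GFP- and 0.294 CPM in RA GFP+ cells, and measured 0.448, 0 and 0 CPM in SAG GFP+ replicates 1 to 3. Krt14 had 3 counts in the RA GFP- group and 0 in both GFP+ groups. In RA GFP-, RA GFP+ and SAG GFP+ cells Krt10 averaged 2.34, 1.74 and 2.14 CPM, Krt1 0.181, 0.0457 and 0.452 CPM, and Krt15 0.192, 0.885 and 1.57 CPM. Krt15 was higher in SAG GFP+ than in RA GFP- cells (2.98, SE 0.73, adjusted p = 0.0101).

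Of 13 tested epithelial regulators and proteases, 1 was higher, a share near that over all genes, and 4 were lower in RA GFP+ than in RA GFP- cells, with a median of -0.15. The serine protease gene Prss8 rose (1.52, SE 0.19, adjusted p = 0.000296). Esrp1, a regulator of epithelial splicing, averaged 74.5 CPM in RA GFP- and 14.5 CPM in RA GFP+ cells, with 38, 11.1 and 18.4 CPM in the SAG GFP+ libraries. Esrp1 fell between the RA groups (-2.36, SE 0.43, adjusted p = 0.00322), as did the epithelial factors Elf3 (-1.78, adjusted p = 0.000296) and Klf5 (-1.78, adjusted p = 0.00124). In SAG GFP+ against RA GFP+ cells 0 were higher and 4 were lower, with a median of -0.34. Esrp2 averaged 4.05, 8.23 and 0.646 CPM and fell there (-3.67, SE 0.37, adjusted p = 4.64e-05), while its partner Esrp1 did not pass the test.

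Of 15 tested transcription factors of non-neural ectoderm and placodes, 5 were higher and 3 lower in RA GFP+ than in RA GFP- cells, with a median of -0.02. Tfap2c, an AP-2 factor of surface ectoderm, trophoblast and stem cells, averaged 104 CPM in RA GFP- and 10.2 CPM in RA GFP+ cells (-3.34, SE 0.55, adjusted p = 0.00175), and measured 8.59, 1.76 and 1.09 CPM in the SAG GFP+ libraries. In SAG GFP+ against RA GFP+ cells 2 were higher and 5 lower, with a median of -0.77, and 8 were lower without SAG GFP+ replicate 1. Msx2, a factor of the neural plate border, averaged 8.45, 6.01 and 0.459 CPM in RA GFP-, RA GFP+ and SAG GFP+ cells and fell there (-3.70, SE 0.34, adjusted p = 2.47e-05).

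Among 5 relatives of the grainyhead and p63 factors, Tfcp2l1, a naive pluripotency factor of the grainyhead family, averaged 100 CPM in RA GFP- and 11.7 CPM in RA GFP+ cells, and fell between them (-3.10, SE 0.38, adjusted p = 0.00027). Tfcp2l1 measured 6.8, 2.06 and 2.06 CPM in the SAG GFP+ libraries. Trp73, the p63 relative, averaged 5.77 CPM in RA GFP- and 0.241 CPM in RA GFP+ cells (-4.57, SE 0.68, adjusted p = 0.00091), the opposite direction to Trp63. In SAG GFP+ replicates 1 to 3 Trp73 measured 14.8, 3.22 and 3.04 CPM, so its SAG mean rests on replicate 1, and that library lay above and the others below the RA GFP- mean. Each SAG library lay above the RA GFP+ libraries, and Trp73 was called higher in SAG GFP+ than in RA GFP+ cells, again opposite to Trp63. That log2 fold change was 3.7 without SAG GFP+ replicate 1, and adjusted p was at most 0.003 over all alternatives. Of 9 mesenchymal counterparts of epithelial genes, Vim alone was lower in RA GFP+ than in RA GFP- cells (-1.38, SE 0.30, adjusted p = 0.0075). In SAG GFP+ against RA GFP+ cells 2 of the 9 were higher and 1 was lower, and the count of 2 was 4 without SAG GFP+ replicate 1 and 1 when SAG GFP+ replicate 3 or either of RA GFP+ replicates 1 and 2 was left out. Zeb2 and Snai1, both repressors of Cdh1, moved in opposite directions there. Zeb2 averaged 37.8 CPM in RA GFP+ and 208 CPM in SAG GFP+ cells (2.46, SE 0.31, adjusted p = 0.000183), and Snai1 averaged 14.6 and 4.42 CPM (-1.72, SE 0.37, adjusted p = 0.00571). Cdh1 itself averaged 70.4 CPM in RA GFP- and 112 CPM in RA GFP+ cells, was not called between them, and measured 127, 30.3 and 49.8 CPM in the SAG GFP+ libraries.

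**Figure D4:**
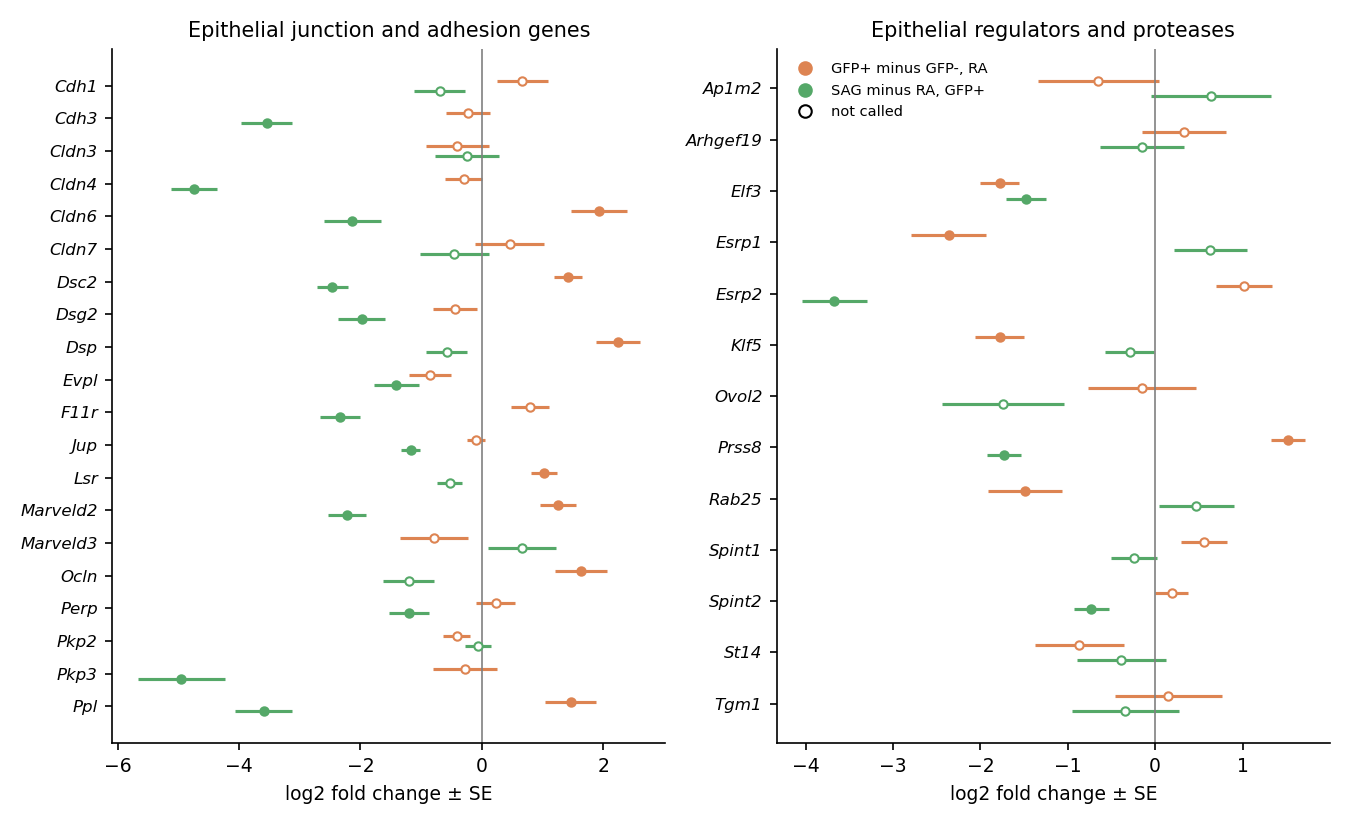
Log2 fold change with SE for the tested junction and adhesion genes (left) and epithelial regulators and proteases (right), with filled points for called genes, for RA GFP+ against RA GFP- cells and SAG GFP+ against RA GFP+ cells. Of 20 junction and adhesion genes, 7 are higher in the first comparison and 12 lower in the second.

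Markers of other cell types moved between the same groups. Summed markers of endoderm, which also makes simple keratins and Epcam, came to 6.48 to 7.3 CPM in RA GFP-, 51.5 to 81.9 CPM in RA GFP+ and 3.45 to 8.11 CPM in SAG GFP+ libraries. Sox17 made up most of the RA GFP+ sum, with a mean of 46.3 CPM there beside 1.33 CPM in RA GFP- cells. Hnf4a averaged less in RA GFP+ than in RA GFP- cells, at 0.294 against 0.824 CPM, and was not called. Apoa1, with 3 counts in the RA GFP+ and 6 in the RA GFP- group, was too low to be tested. Of the 9 endoderm markers, 7 were tested, 5 were higher in RA GFP+ than in RA GFP- cells and 5 lower in SAG GFP+ than in RA GFP+ cells. Afp and Ttr were at 0 in RA GFP- cells, and Afp and Apoa1 in SAG GFP+ cells. Summed mesoderm and mesenchyme markers ran from 32.4 to 36.9, 89 to 115 and 40.9 to 59.8 CPM in the same order of groups, with Osr1 at 0 in SAG GFP+ cells, and node and notochord markers from 5.87 to 7.88, 23.5 to 35.2 and 16 to 125 CPM, with Noto at 0 in both RA groups. The sums of endoderm, mesoderm, node, floor plate and neural crest markers were higher in RA GFP+ than in RA GFP- libraries, without overlap. The neural crest list did not move together: of 7 tested, 2 were called higher and 2 lower, beside 8.49% and 8.43% of all genes. Ets1 averaged 10.1 CPM in RA GFP- and 37.9 CPM in RA GFP+ cells, and Sox9 18.2 and 34.6 CPM. Tfap2a averaged 5.07 and 1.39 CPM, and Foxd3 2.19 and 0.0564 CPM. Krt8, Krt18, Trp63 and Dlx5 were higher in RA GFP+ cells too, and the part of cells with such markers in these results was not tested.

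Naive pluripotency markers, a list that includes Tfcp2l1, ran highest in RA GFP- cells, as Grhl1, Grhl3 and Tfap2c did. Their sum was 908 to 1330 CPM in RA GFP-, 61.2 to 73.6 CPM in RA GFP+ and 59.8 to 216 CPM in SAG GFP+ libraries, with 7 of 8 lower in RA GFP+ than in RA GFP- cells, and their part in these results was not tested. The sum of 216 CPM, in SAG GFP+ replicate 1, was mostly Pou5f1. Trophoblast markers summed to 19.9 to 38.3, 13.5 to 23.6 and 5.33 to 56.7 CPM, with Elf5 and Tpbpa at 0 in SAG GFP+ cells. The highest sum, in SAG GFP+ replicate 1, rested on Cdx2 and Eomes. Epidermis markers summed to 13.6 to 16.3, 10.2 to 12 and 5.15 to 6.3 CPM, with Dsg3 at 0 in all 9 libraries, and none of the 4 tested was called between the RA groups. Itgb4 made up most of the RA sums, with means of 11.4, 7.99 and 1.29 CPM in RA GFP-, RA GFP+ and SAG GFP+ cells. Krt15 went the other way, at 0.192, 0.885 and 1.57 CPM. For comparison with the labelled tissue, neural markers summed to 638 to 898, 155 to 238 and 803 to 887 CPM, and all 6 were lower in RA GFP+ than in RA GFP- cells. Floor plate markers summed to 230 to 311, 694 to 1170 and 647 to 1150 CPM, and neural crest markers to 54.2 to 66.7, 84.8 to 104 and 50.6 to 110 CPM.

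**Figure D5:**
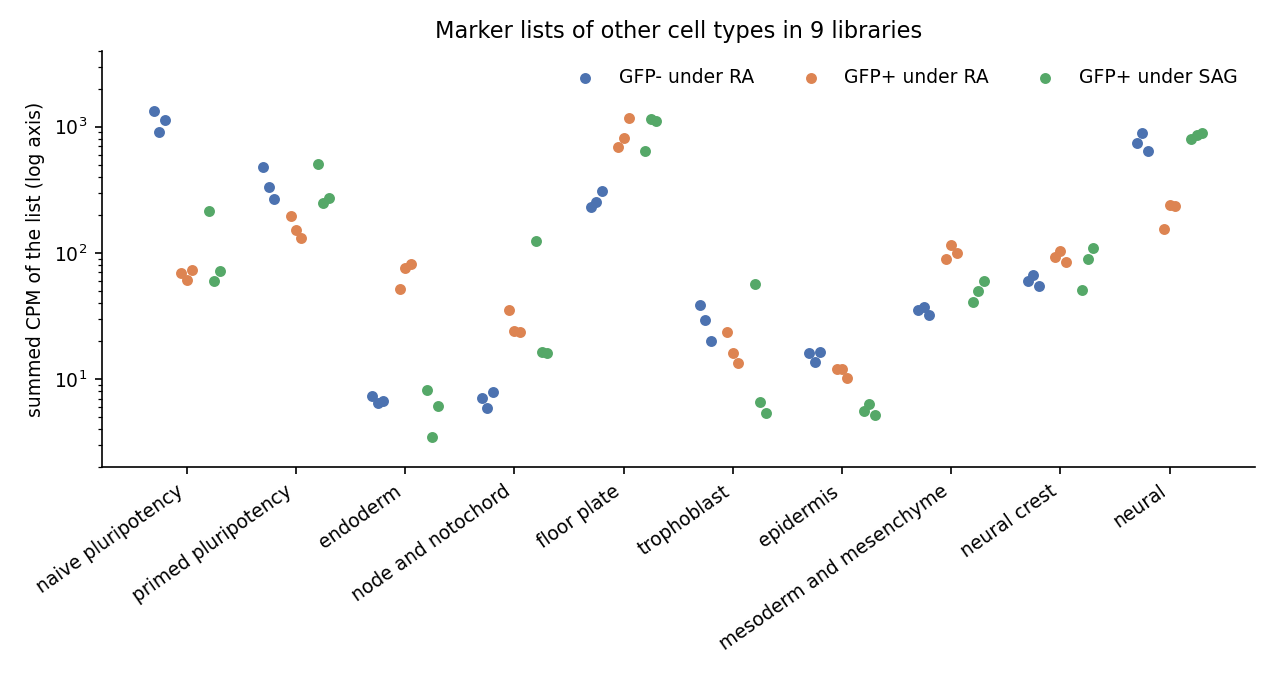
Summed CPM (log axis) of each marker list in each of the 9 libraries, coloured by group. Endoderm and mesoderm markers are highest in the RA GFP+ libraries and naive pluripotency markers in the RA GFP- libraries. SAG GFP+ replicate 1 stands above its group in node markers and, through Cdx2 and Eomes, in the trophoblast sum.

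Across the 9 libraries the 10 genes fell into patterns that are given as a description, since the libraries form 3 groups. Pearson's r of log2 CPM was 0.96 for Krt8 and Krt18, 0.90 for Grhl1 and Grhl3, 0.85 for Trp63 and Dlx5, and 0.80 for Grhl2 and Epcam. Outside the list, genes most like Krt8 were Tagln, which encodes an actin-binding protein (r = 0.985) and Anxa3 (0.983), and those most like Krt18 were Fhl2 (0.990), Ccn1 (0.989) and Gxylt2 (0.979). For Grhl3 they were Dysf (0.993), Ostf1 (0.989) and Tmem8 (0.989), and for Grhl1 Akap1 (0.991), Epp13 (0.988) and Gldc (0.986). For Dlx5 they were Lsr (0.996), Acot1 (0.975) and Prr7 (0.962), and for Trp63 Rassf9 (0.964), Rnf141 (0.951) and Sox18 (0.951). Krt19, Epcam, Dlx3 and Grhl2 had no gene above r = 0.947, the value of Fgfr1op with Grhl2. Of the 30 genes with the highest Pearson's r, 3 for each of the 10, 6 were again among the 3 most alike by Spearman's rho.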

How the data were processed

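Poly(A) RNA of 9 sorted cell samples was made into directional libraries, per the labels' protocols. The authors deposited raw read counts per Ensembl gene, with no normalization. The submitters' processing notes name Trim Galore 0.5.0, Bowtie2 2.3.4.1, featureCounts (Subread 1.6.2) and GRCm38. The sources used here give no strand setting, annotation release or treatment of reads with several matches.

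Symbols and exon lengths came from GENCODE annotation of GRCm38, and 54495 of 54532 IDs had a symbol. The members and lists were chosen with earlier results of these data known. Counts were tested with edgeR 4.0.16 (R 4.3.3): TMM scaling, filterByExpr with a minimum count of 10, 1 quasi-likelihood fit with 3 group means, and Benjamini-Hochberg adjustment over all 16772 tested genes. SE is the log2 fold change over the square root of F. Correlations used log2 CPM with a prior count of 2.

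All 10 members are named. In each pathway list the rule picks up to 4 called genes with the smallest p per comparison, not all of which are described, and others named were chosen after their values were seen. In marker lists it picks genes at 0 and the 3 highest. The 3 most alike genes had a mean of at least 1 CPM. A few genes picked this way are not reported here.

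Same-numbered RA GFP- and RA GFP+ libraries deviated together from their group means, with r across genes of 0.273, 0.307 and 0.347, and were taken as pairs. The reported tests did not use these pairs, and fits with the replicate number as a block are among the alternatives. SAG libraries were not paired with RA GFP+ (r = 0.111, -0.082 and 0.182) or RA GFP- (r = 0.175, -0.022 and 0.242). Alternatives were relative log expression scaling, no filter, DESeq2 1.42.0, fits of 2 groups, replicate blocks and leaving out each library. With 25281871 to 29763765 counts per library, Trp63 and Dlx5 rest on few counts, and floors cover counting error only.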

Additional observations from a re-analysis of the deposited data

How the results depend on the processing

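Of 448 values of the 10 genes under the alternatives, 402 kept their direction and their side of the threshold, 28 passed the threshold where the reported value did not, 6 no longer passed it and 12 changed sign, none of which was called. Krt19 in SAG GFP+ against RA GFP- cells (0.03 as reported) was -0.22 with a replicate block over all 9 libraries, -0.33 with a replicate block in the 2 groups, -0.08 without RA GFP- replicate 3 and, over all libraries left out, from -0.86 without SAG GFP+ replicate 3 to 0.51 without SAG GFP+ replicate 1. Dlx3 between the RA groups (-0.12) ran from -0.40 without RA GFP- replicate 1 to 0.10 without RA GFP+ replicate 1, with 0.02 and 0.08 when RA GFP- replicates 2 and 3 were left out in turn. Grhl1 between the GFP+ groups (-0.03) ran from -0.95 without SAG GFP+ replicate 1 to 0.32 without SAG GFP+ replicate 3, with 0.10 and 0.27 when RA GFP+ replicate 1 and SAG GFP+ replicate 2 were left out in turn. Grhl2 between the RA groups (0.47) ran from -0.03 without RA GFP+ replicate 3 to 0.82 without RA GFP+ replicate 2, and Epcam between the GFP+ groups (-0.31) from -0.94 without SAG GFP+ replicate 1 to 0.26 without RA GFP+ replicate 3. Of the 10 genes, 7 were called between the GFP+ groups without the filter on low counts and 7 with a replicate block over all 9 libraries, in place of 4, beside 4799 and 5368 of all genes in place of 4117. The replicate block in the 6 RA libraries called 5240 genes between the RA groups in place of 2838. Leaving out each library gave 1783 (without RA GFP+ replicate 2) to 3368 genes between the RA groups, 2747 to 4972 between the GFP+ groups and 3365 to 5876 between SAG GFP+ and RA GFP- cells, with 5 to 7, 3 to 6 and 4 to 5 of the 10 genes. The cause of these changes was not tested.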
